A study of Mus musculus with 2 samples.

Results

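The genes described here are 8 smooth muscle contractile genes, Acta2, Actg2, Myh11, Myl9, Tagln, Cnn1, Tpm2 and Des. They were chosen by symbol, and 8 of 8 were found among the 32285 genes counted. They were followed across smooth muscle-like cells, pericyte-like cells, fibroblasts and macrophages of the mouse temporomandibular joint (TMJ), the jaw joint. The data were 2 droplet single-cell RNA-seq libraries of dissociated TMJ tissue from C57BL/6 mice of 8 to 10 weeks. The joints of both groups had been injected with complete Freund's adjuvant (CFA), which gives an inflamed, painful joint. One library came from WT mice and the other from Prox1+/- mice, the group labelled Prox1 mutant, which carry 1 functional copy of Prox1 in every cell. Prox1 encodes a transcription factor of lymphatic endothelium, and the study used these mice as a model of impaired lymphatic vessels. How many mice went into each library is not given in the sources used here. With 1 library per condition there was no replicate check and no p-value. The intervals below are exact 95% intervals (Poisson for levels, Clopper-Pearson for shares, conditional binomial for ratios) and cover counting error only.

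Contraction of smooth muscle rests on actin filaments that slide past filaments of smooth muscle myosin when the myosin light chain is phosphorylated. Calponin, transgelin and tropomyosin bind the actin filament and stabilise it or tune its contact with myosin, and desmin filaments tie the contractile units together. In the wall of blood vessels this set marks the smooth muscle of arteries and veins, while pericytes on capillaries carry less of it. Many of the genes are switched on by serum response factor (SRF) and its partner myocardin through the CArG box, a short DNA element. Some of the set, above all Acta2 and Tagln, can also be made by activated fibroblasts.

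The WT library held 53517206 unique molecular identifiers (UMIs, counted transcripts) over 5709 barcodes and the Prox1+/- library 62446987 over 7846. After barcodes with fewer than 500 genes or with 10% or more mitochondrial UMIs were removed, 4352 and 5757 cells were left, with medians of 6997 and 4848 UMIs. Over all kept cells Prox1 itself stood at 11.6 CPM (UMIs per 1000000 UMIs of the cells named) in WT and 5.80 CPM in Prox1+/-, lower in the library labelled mutant. It was not lower there in every class, with 14.3 and 14.3 CPM in smooth muscle-like cells, 6.70 and 12.8 CPM in pericyte-like cells and 1.34 and 2.30 CPM in fibroblasts, from 4 to 23 UMIs each, while macrophages held 7 and 0 UMIs. The libraries shared 10 barcodes, of which 4 were kept in both, and 0 of them were in mural cells, the cells of the vessel wall. The 8 genes and related contractile genes, 44 in all, were kept out of the clustering, so that no class was drawn by their levels. Smooth muscle-like cells were named by 15 other markers, such as Rasl12, Casq2 and Itga8, and numbered 152 in WT and 97 in Prox1+/-. In both libraries 0 of the 15 were at 0 UMIs, but this held in fibroblasts and macrophages too and does not set the class apart. Summed, these markers stood at 390 and 277 CPM in fibroblasts and at 42.5 and 14.9 CPM in macrophages. Pericyte-like cells, named by 10 markers such as Kcnj8 and Abcc9, numbered 67 and 39. Against cells that were not mural, Kcnj8 and Abcc9 were raised in the pericyte-like class alone. Among the smooth muscle markers, Pln and Susd5 had 0 UMIs in pericyte-like cells. Other markers did not part the classes, and Higd1b, Cspg4, Rasl12 and Casq2 were raised in both. Summed pericyte markers stood at 2943 and 3152 CPM in pericyte-like cells and at 1503 and 1352 CPM in smooth muscle-like cells. The pericyte-like cells also held smooth muscle markers at 3047 and 3949 CPM, against 9913 and 10417 CPM in smooth muscle-like cells, and fibroblast markers at 3370 and 2480 CPM, against 819 and 151 CPM. Fibroblasts numbered 548 and 549, macrophages 571 and 718, and B cells, which should lack the contractile genes, 147 and 117. Median depth was 9584 and 13528 UMIs in smooth muscle-like cells, 6572 and 10425 in pericyte-like cells, 12264 and 7673 in fibroblasts, 16505 and 14392.5 in macrophages and 4013 and 4719 in B cells.

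Summed over the 8 genes, the smooth muscle-like cells held 28655 CPM in WT (95% interval 28394 to 28917) and 27242 CPM in Prox1+/- (26962 to 27524). The pericyte-like cells followed with 13649 and 16350 CPM. Fibroblasts stood at 193 and 235 CPM, macrophages at 107 and 19.2 CPM, and B cells at 9.01 and 10.7 CPM, from 7 and 9 UMIs. The order of smooth muscle-like, pericyte-like, fibroblast, macrophage and B cell held for the sum in both libraries. Neutrophils, at 365 and 50.8 CPM, stood above macrophages in both, and above fibroblasts in WT. However, 2 droplets, both doublet calls, held 91.6% of the WT neutrophil UMIs of the set. Without droplets of at least 20 such UMIs, WT neutrophils stood at 31.2 CPM, below WT fibroblasts at 98.4 CPM. Between fibroblasts and macrophages the WT intervals of Tagln, Myh11, Cnn1, Actg2 and Des overlapped, and those of Cnn1 and Actg2 did so in Prox1+/- as well. Between macrophages and B cells the intervals of all 8 genes overlapped in Prox1+/-. Cnn1 and Actg2 broke the order at its top, being higher in pericyte-like than in smooth muscle-like cells in both libraries. For Cnn1 in WT the gap was small. Without the top droplet the pericyte-like level fell from 315 to 267 CPM, against 259.7 CPM in smooth muscle-like cells.

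**Figure D1:**
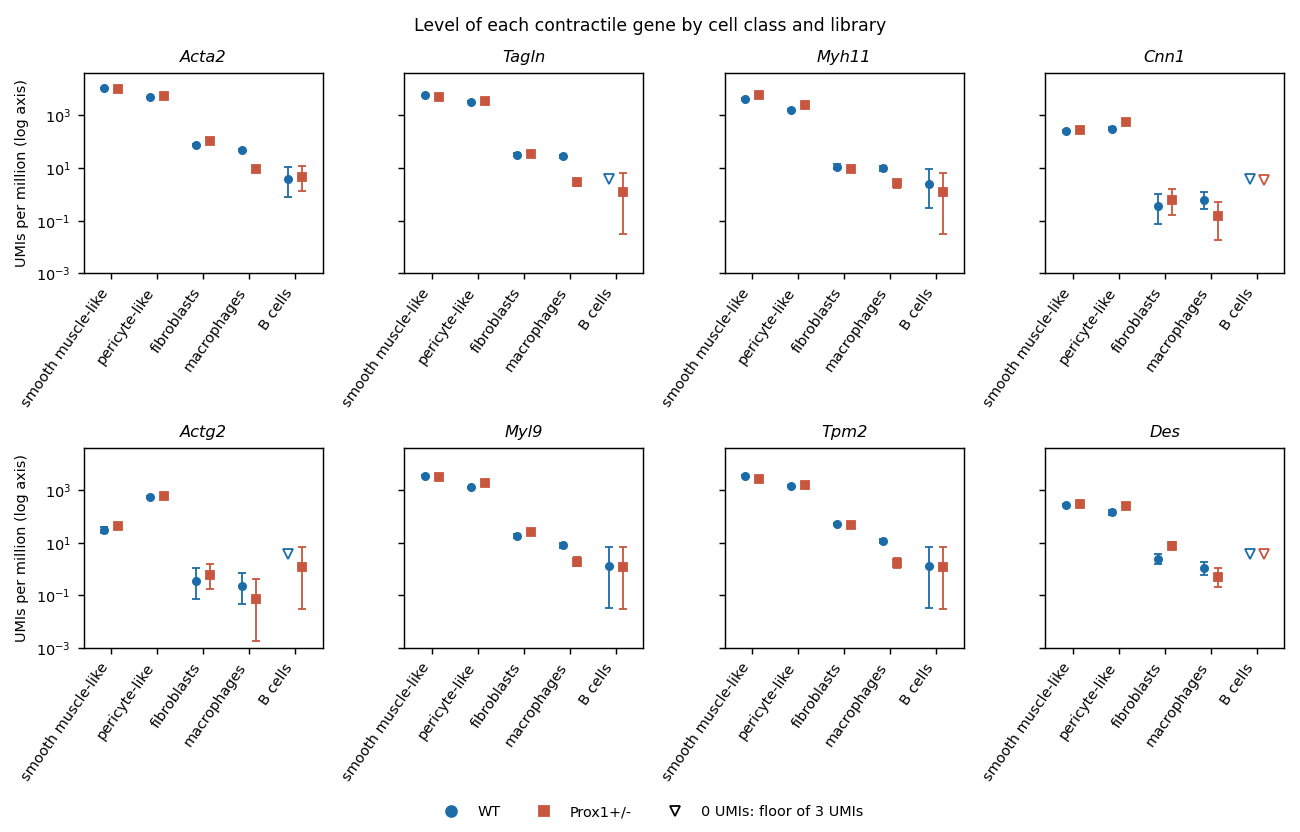
Level of each contractile gene in CPM on a log axis, in 8 panels, by cell class and library (circles WT, squares Prox1+/-, bars 95% Poisson intervals, open triangles 0 UMIs drawn at the floor of 3 UMIs). Smooth muscle-like and pericyte-like cells stand far above fibroblasts, macrophages and B cells in each panel, and Actg2 is the gene with the widest gap in favour of pericyte-like cells, 556 against 31.0 CPM in WT. All pericyte-like Actg2 UMIs lie in the Fst-led subcluster.

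Among the actins, Acta2 (ENSMUSG00000035783, chr19:34241090-34255590, minus strand, mm10) encodes the alpha-actin of vascular smooth muscle. In smooth muscle-like cells it reached 10728 CPM in WT (10569 to 10889) and 9858 CPM in Prox1+/- (9689 to 10028), with a UMI in 98.7% and 96.9% of cells. In pericyte-like cells it stood at 4984 and 5622 CPM, with a UMI in 67.2% and 64.1% of cells. Smooth muscle-like cells thus exceeded pericyte-like cells 2.15-fold (2.07 to 2.24) in WT and 1.75-fold (1.68 to 1.84) in Prox1+/-. A few droplets raised the pericyte-like level and so narrowed this excess. Without the top droplet of the class it fell to 4301 CPM in WT and 4628 CPM in Prox1+/-. The median cells lay further apart, with 718 CPM in WT and 276 CPM in Prox1+/- in pericyte-like cells, against 9532 and 8287 CPM in smooth muscle-like cells.

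Actg2 (ENSMUSG00000059430, chr6:83512905-83536265, minus strand) encodes the gamma-actin best known from visceral smooth muscle, and it had a pattern of its own. Its level was 31.0 CPM in WT smooth muscle-like cells (23 to 40.9) and 44.5 CPM in Prox1+/- (33.9 to 57.4), with a UMI in only 15 and 12 cells. In pericyte-like cells it stood at 556 and 584 CPM, with a UMI in 37.3% and 33.3% of cells. It was 17.9-fold lower in smooth muscle-like than in pericyte-like cells of WT and 13.1-fold lower in Prox1+/-. All of its pericyte-like UMIs lay in the Fst-led subcluster described below, where fibroblast markers (3761 and 2842 CPM) exceeded pericyte markers (2169 and 2068 CPM). The Zmat4-led subcluster, with pericyte markers at 8069 and 8230 CPM, had 0 Actg2 UMIs, so the contrast is not one with clear pericytes. No other gene of the 8 had its higher level in pericyte-like cells by 2-fold or more.

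Of the myosin genes, Myh11 (ENSMUSG00000018830, chr16:14194535-14291372, minus strand) encodes the smooth muscle myosin heavy chain. It stood at 4376 CPM in WT smooth muscle-like cells (4275 to 4480) and at 5827 CPM in Prox1+/- (5698 to 5958), and at 1612 and 2514 CPM in pericyte-like cells. It was the most widely detected of the set, with a UMI in 151 of 152 and 97 of 97 smooth muscle-like cells and in 91.0% and 76.9% of pericyte-like cells. The ratio of smooth muscle-like to pericyte-like cells was 2.71 (2.54 to 2.91) in WT and 2.32 (2.17 to 2.48) in Prox1+/-. Myl9 (ENSMUSG00000067818, chr2:156775420-156781658, plus strand), a regulatory light chain of that myosin, was at 3493 and 3117 CPM in smooth muscle-like cells and at 1266 and 1937 CPM in pericyte-like cells. Its ratio fell short of 2-fold in Prox1+/-, at 1.61 (1.49 to 1.74), after 2.76 (2.56 to 2.98) in WT.

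Tagln (ENSMUSG00000032085, chr9:45929619-45936058, minus strand), an actin-binding protein also called SM22, stood at 5995 and 5182 CPM in smooth muscle-like cells and 3370 and 3405 CPM in pericyte-like cells. The Tagln locus overlaps Pcsk7 and Gm48529 on the opposite strand. Tpm2 (ENSMUSG00000028464, chr4:43514711-43523765, minus strand), beta-tropomyosin, was at 3493 and 2635 CPM in smooth muscle-like cells and 1406 and 1491 CPM in pericyte-like cells, 2.48-fold (2.31 to 2.67) and 1.77-fold higher in the former. Cnn1 (ENSMUSG00000001349, chr9:22099216-22109630, plus strand), the calponin of differentiated smooth muscle, went the other way from Tpm2. Its 259.7 and 286 CPM in smooth muscle-like cells lay below 315 and 546 CPM in pericyte-like cells. The ratio was 0.825 (0.693 to 0.985) in WT and 0.524 (0.442 to 0.622) in Prox1+/-. Without the top droplet of the class, the pericyte-like level fell to 267 CPM in WT and 375 CPM in Prox1+/-. The WT level was then near the 259.7 CPM of smooth muscle-like cells. Only 55.9% and 58.8% of smooth muscle-like cells and 20.9% and 23.1% of pericyte-like cells had a Cnn1 UMI, so the higher level came from a smaller share of cells. Of the pericyte-like cells with a Cnn1 UMI, 14 of 14 in WT and 8 of 9 in Prox1+/- were in the Fst-led subcluster.

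Des (ENSMUSG00000026208, chr1:75360329-75368579, plus strand), desmin, is the intermediate filament of muscle cells, and its locus overlaps Gm15179 on the opposite strand. It stood at 279 and 293 CPM in smooth muscle-like cells and at 141 and 251 CPM in pericyte-like cells, with a UMI in 72.4% and 78.4% of the former. The ratio was 1.98 (1.57 to 2.53) in WT and 1.17 (0.934 to 1.47) in Prox1+/-, where the interval includes equal levels.

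Called at least 2-fold with the whole interval past 1, Acta2, Myh11, Myl9 and Tpm2 were higher in WT smooth muscle-like than pericyte-like cells, 4 of 8, where 9.77% of 3960 genes with at least 100 UMIs were called higher. Actg2 was the 1 gene called lower, against 11.5% of those genes. In Prox1+/- 1 of 8, Myh11, was called higher (12.4% of 3108 genes) and 1, Actg2, lower (10.0%). The counts moved with the choice of cells. A stricter filter, 1000 genes and a mitochondrial share below 5%, left 0 called higher in both libraries, and removing doublet calls raised the Prox1+/- count to 3. The share over all genes was not counted for these choices.

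A separate list of 23 contractile genes, 22 of them with enough UMIs, gave 4 called higher and 0 lower in each library, with median log2 ratios of 0.50 and 0.40 against -0.11 and -0.08 over all genes tested, of which 9.77% and 12.4% were called higher and 11.5% and 10.0% lower. In WT these were Smtn (3.81-fold), Flna (2.64-fold), Mylk (2.30-fold), the kinase that phosphorylates the myosin light chain, and Lmod1 (2.28-fold). In Prox1+/- they were Ldb3 (6.04-fold), Smtn (2.85-fold), Pdlim3 (2.12-fold) and Ppp1r12a (2.03-fold), so that Smtn, smoothelin, was called in both. The lowest ratios were 0.75 (Pgm5), 0.805 (Tgfb1i1) and 0.916 (Cacna1c) in WT and 0.532 (Pgm5), 0.729 (Ppp1r14a) and 0.789 (Tgfb1i1) in Prox1+/-, with no call. Non-muscle and striated relatives of the 8 genes had median log2 ratios of -0.50 and -0.58. Of 11 measured, 3 were called lower and 0 higher in each library. Among the lower were the non-muscle light chain gene Myl12a (ratio 0.322 and 0.334) and Cnn3 (0.386 and 0.287). Of the regulators, 0 of 6 were called in WT and 1 of 5, Klf4 (2-fold higher), in Prox1+/-. Myocd, which encodes myocardin, stood at 379.9 and 376 CPM in smooth muscle-like cells and at 343 and 208 CPM in pericyte-like cells, with no call in either library. The matrix genes Col1a1, Col1a2 and Sparc were called lower in smooth muscle-like cells in both libraries, 3 of 3, as were 3 of 5 genes of an activated fibroblast list in WT (Postn, Tnc and Fap) and 1 of 3 (Postn) in Prox1+/-.

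The promoter sequences of the 8 genes were searched for the CArG box, on both strands of the 250 bases before the start (RefSeq, GRCm38.p6). Entries were at hand for 5 of the 8, Acta2, Cnn1, Myl9, Tpm2 and Des. With 1 base other than A or T allowed in the 6-base core, the element was found in 2 of 5, Acta2 and Myl9, and in 8.59% of all 32851 promoters. Without that allowance it was found in Myl9 alone, 1 of 5, and in 1.47% of all promoters. These sites are shown because SRF, which binds this element, is known to switch on many of the genes. The capitals mark the element within 10 bases of flank on each side, and the Acta2 sites, 84 to 75 and 34 to 25 bases before the RefSeq start, lie inside the first exon of another annotated transcript.
Acta2, chr19:34255438-34255467, minus strand: gtgctgaggtCCCTATATGGttgtgttaga
Acta2, chr19:34255388-34255417, minus strand: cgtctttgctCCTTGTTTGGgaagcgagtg
Myl9, chr2:156775293-156775322, plus strand, no base outside the core rule: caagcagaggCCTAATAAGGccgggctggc
Myl9, chr2:156775355-156775384, plus strand: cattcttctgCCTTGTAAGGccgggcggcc
A match of letters is a description of the sequence and not a bound site.

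All mural cells were reclustered together, again without the contractile genes, and both classes were built from the subclusters, named here by a leading gene. Each subcluster took the class with the larger share of its markers raised. The Fst-led one raised 10 of 10 pericyte markers but also 12 of 15 smooth muscle markers. Smooth muscle-like cells fell into a Timp4-led subcluster (78 WT and 47 Prox1+/- cells) and a Hhip-led one (74 and 50). Pericyte-like cells fell into a Fst-led subcluster (42 and 24) and a Zmat4-led one (25 and 15). The summed level was 31124 and 27313 CPM in Timp4-led cells, 25719 and 27186 CPM in Hhip-led cells, 15406 and 19604 CPM in Fst-led cells and 2004 and 1107 CPM in Zmat4-led cells. Erythroid marker genes stood at 18483 and 18952 CPM in Timp4-led and at 301 and 7775 CPM in Hhip-led cells, and their part in the differences was not tested.

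**Figure D2:**
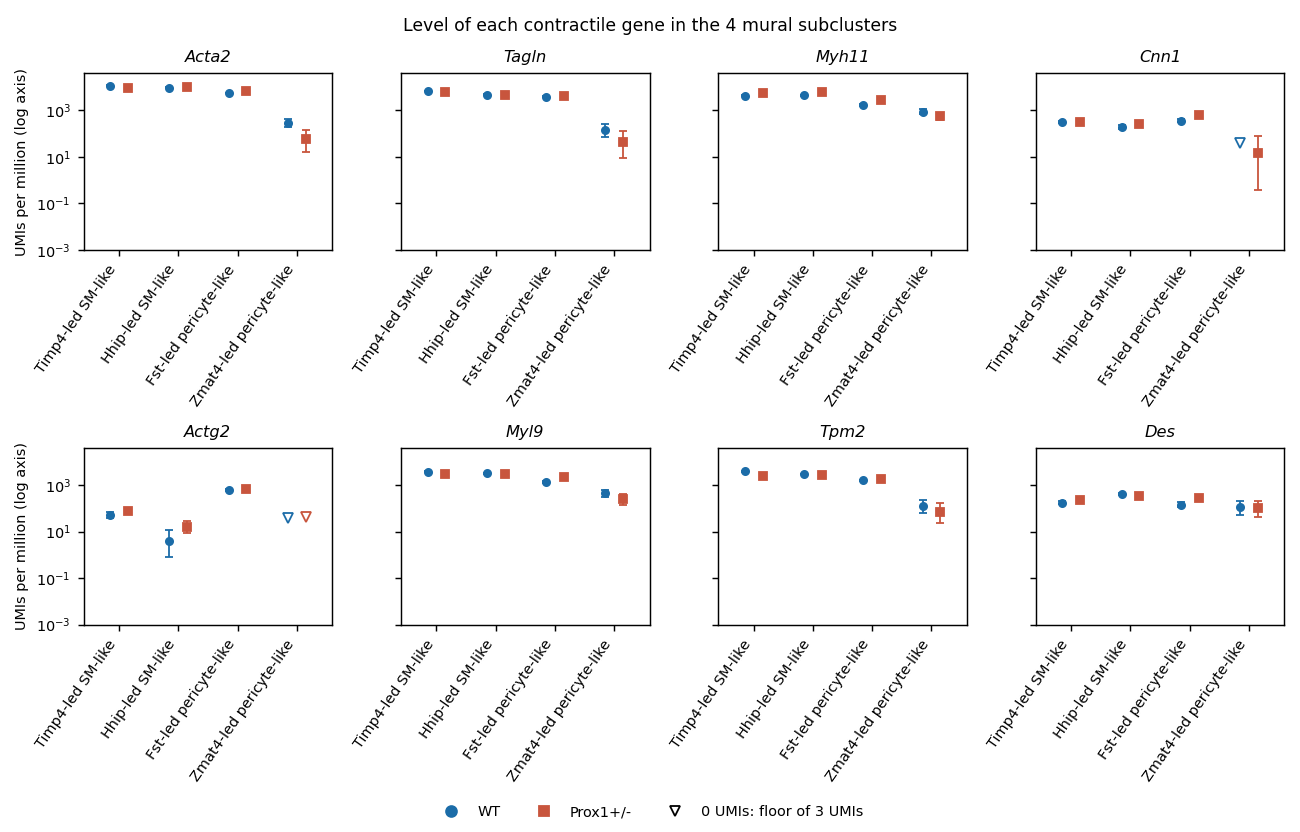
Level of each contractile gene in CPM on a log axis in the 4 mural subclusters, by library, with 95% Poisson intervals and 0 UMIs drawn as open triangles at the floor of 3 UMIs. Acta2, Tagln, Myh11, Myl9, Tpm2 and Des are lowest in the Zmat4-led subcluster, where Actg2 has 0 UMIs, and Actg2 is highest in the Fst-led subcluster at 639.7 and 709 CPM.

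The Zmat4-led cells had little of the contractile set, and 23 of 25 and 15 of 15 of them held under 20 of its UMIs. Those cells carried pericyte markers at 8637 and 8230 CPM. Acta2 was 294 CPM there in WT (23 UMIs) and 58.3 CPM in Prox1+/- (4 UMIs), and Actg2 had 0 UMIs in both. Myh11 stood at 881 and 568 CPM and Myl9 at 447 and 248 CPM. Smooth muscle-like cells of WT were called higher than Zmat4-led cells for 7 of 8 genes, where 17.4% of all genes were. In WT and Prox1+/- the ratios were lowest for Des (2.43 and 2.88) and Myh11 (4.97 and 10.3) and highest for Acta2 (36.5 and 169) and Tagln (42.7 and 119). Cnn1 had 0 UMIs in WT Zmat4-led cells, which puts it at least 6.78-fold higher in smooth muscle-like cells, and 1 UMI in Prox1+/-, a ratio of 19.6 (3.50 to 777). The shallow depth of these cells, medians of 2585 and 4287 UMIs, limits what could be seen of the low genes.

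The Fst-led cells held nearly all of the contractile RNA of the pericyte-like class, 7996 of 8153 UMIs in WT and 6305 of 6381 in Prox1+/-. Against them alone, smooth muscle-like cells were called higher for Myh11 (2.54-fold), Myl9 (2.51-fold) and Tpm2 (2.18-fold) in WT, where 10.9% of genes were, and for 0 of 8 in Prox1+/- (14.0%). In Prox1+/-, Actg2 and Cnn1 were called lower in smooth muscle-like cells, at ratios of 0.0628 and 0.434 (9.65%). Within the Fst-led subcluster most of the RNA sat in part of the droplets, split here by their contractile UMIs after the values were seen. In WT, 17 of its 42 droplets held at least 100 such UMIs each, 7211 in all, at 26147 CPM. In Prox1+/-, 13 of 24 did, with 5928 UMIs at 27912 CPM. The cut itself makes these levels high. Pericyte markers stood at 1588 and 1408 CPM in these high droplets. They stood at 3646 and 4500 CPM in the 11 and 5 low ones, the Fst-led droplets with under 20 contractile UMIs. Smooth muscle markers stood at 4032 and 4817 CPM in the high droplets and 2337 and 2296 CPM in the low ones. Smooth muscle-like cells held them at 9913 and 10417 CPM. The droplets that set the class level thus held less pericyte and more smooth muscle marker RNA than the low ones, which goes against the name pericyte-like for them. Fst, the gene for follistatin, was at 968 and 862 CPM in the high droplets and 35.1 and 30.6 CPM in the low ones. The low levels came from 1 droplet in each library, while 16 of 17 and 9 of 13 high droplets had an Fst UMI. In Prox1+/- the droplet with the most contractile UMIs alone held 99 Fst UMIs. Of the high droplets 2 of 17 in WT and 9 of 13 in Prox1+/- were doublet calls. With doublet calls removed before clustering, Myh11 in Prox1+/- pericyte-like cells went from 2514 to 1851 CPM, Myl9 from 1937 to 1488 CPM, Actg2 from 584 to 701 CPM and Cnn1 from 546 to 693 CPM.

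The droplet with the most contractile UMIs among WT pericyte-like cells held 1272 of its 20973 UMIs in the 8 genes, with 498 from Acta2, 345 from Tagln and 52 from Actg2, and was no doublet call. Its Prox1+/- counterpart held 1241, with 512 from Acta2, 266 from Tagln and 35 from Actg2, and was no doublet call either. In WT 6 pericyte-like droplets held 50% of the class's contractile UMIs and in Prox1+/- 4 did, against 37 and 22 droplets in smooth muscle-like cells. The median pericyte-like droplet had 19 and 17 contractile UMIs and the median smooth muscle-like droplet 241.5 and 326. The level of the pericyte-like class was thus that of a minority of its cells, while the smooth muscle-like level was spread widely.

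Between the smooth muscle-like subclusters the set was mostly level. Actg2 was the exception in both libraries, with 53.6 and 80.3 CPM in Timp4-led cells (47 and 47 UMIs) and 4.07 and 16.2 CPM in Hhip-led cells (3 and 12 UMIs), 13.2-fold (4.24 to 66.2) and 4.96-fold (2.59 to 10.3) higher in the former. In Timp4-led cells 1 droplet held 17 of the 47 UMIs in WT and another 19 of the 47 in Prox1+/-, without which Actg2 stood at 34.9 and 50.03 CPM there. In Hhip-led cells of Prox1+/- 1 droplet held 10 of the 12. Des leaned the other way, at 175 and 222 CPM in Timp4-led and 403 and 349 CPM in Hhip-led cells, a log2 ratio of -1.21 in WT, which was called, and -0.65 in Prox1+/-, which was not. These made 2 of 8 called in WT, where 10.1% of genes were called either way, and 1 of 8 in Prox1+/-, where 7.92% were. Actg2 had too few UMIs for that background. Of the 7 genes with at least 100 UMIs, 1 was called in WT and 0 in Prox1+/-.

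The genes also varied together from cell to cell within the smooth muscle-like class. As a description over 152 WT and 97 Prox1+/- cells, which share libraries and differ in depth, Pearson's r of Acta2 with Tagln was 0.88 and 0.91 and of Tagln with Tpm2 0.90 and 0.90. Actg2 and Des gave -0.20 and -0.23. Over all pairs the median r was 0.46 and 0.44 in smooth muscle-like and 0.59 and 0.67 in pericyte-like cells, where Cnn1 with Actg2 gave 0.81 and 0.84. After thinning each cell to 2000 UMIs, the median smooth muscle-like cell had a UMI of 6 of the 8 genes, and 91.9% and 87.9% had 5 or more. The level of the set also moved with the mitochondrial share, which had medians of 6.04% and 5.36% in smooth muscle-like cells. Cells under 5% held 20679 and 20402 CPM and cells from 5 to 10% held 32456 and 32113 CPM.

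Of all UMIs of the 8 genes over every barcode, 31.8% in WT and 43.8% in Prox1+/- lay in barcodes under 5% mitochondrial UMIs and 46.7% and 46.2% in those from 5 to 10%. A further 20.3% and 8.95% lay in barcodes from 10 to 20%, which the filter of the study's methods removes. Per UMI the set did not climb evenly with the mitochondrial share, at 7639, 11877 and 1801 CPM over the barcodes of 5 to 10%, 10 to 20% and 20 to 50% in WT and at 9068, 5233 and 919 CPM in Prox1+/-. With a minimum of 200 genes and a limit of 20% together, the summed log2 ratio between libraries in smooth muscle-like cells was -0.16.

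**Figure D3:**
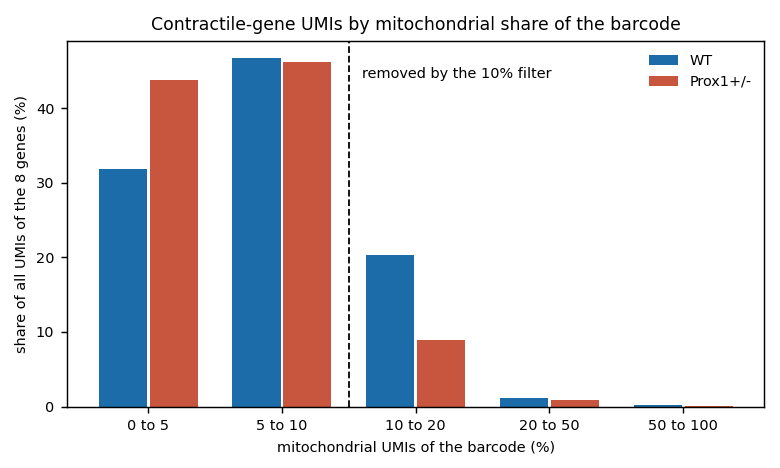
Share of all UMIs of the 8 contractile genes, in percent, by the mitochondrial share of the barcode and library, with the 10% filter as a dashed line. The bin from 5 to 10% holds the most in both libraries, and the bin from 10 to 20%, beyond the filter, holds 20.3% in WT and 8.95% in Prox1+/-.

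Among the 10 genes whose pattern over the classes of both libraries (32 points, classes of at least 20 cells, log2 of CPM plus 5) was most like the mean of the 8 were Rgs4 (r = 0.948), a regulator of G protein signalling, Hspb7 (0.944), Gucy1a2 (0.941), a subunit of the nitric oxide receptor, and Myom1 (0.939). Rgs4 was also among the markers used to name the classes, as were Casq2 (0.938) and Gucy1b1 (0.937) of the 10. The points share libraries and depth, so the values are a description. The 8 genes themselves had r from 0.77 (Des) to 0.97 (Myl9) with that mean.

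Prox1+/- against WT, 0 of the 8 genes was called in smooth muscle-like cells, where 2.54% of 4613 genes were called either way. Acta2 differed by a log2 ratio of -0.12 (-0.15 to -0.09), Tagln by -0.21 (-0.26 to -0.17) and Myl9 by -0.16 (-0.22 to -0.11). Myh11 was higher in Prox1+/- by 0.41 (0.37 to 0.46), and Tpm2 was lower by -0.41 (-0.47 to -0.35). For Cnn1 (0.14), Actg2 (0.52) and Des (0.07) the interval included 0. The summed log2 ratio was -0.07 (-0.09 to -0.05), and of the 23 other contractile genes 0 were called. By subcluster Myh11 was higher by 0.39 in Timp4-led and 0.41 in Hhip-led cells, whereas Tpm2 differed by -0.70 in the former and -0.09 in the latter. Actg2 in Hhip-led cells was called 3.98-fold higher (1.07 to 22.0), from 12 against 3 UMIs, too few for the background, in which 1.55% of genes were called higher. Of those 12 UMIs 10 lay in 1 droplet, without which Actg2 stood at 2.76 CPM, against 4.07 CPM in WT. With 1 library each, genotype, mouse and library cannot be told apart in any of these ratios.

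**Figure D4:**
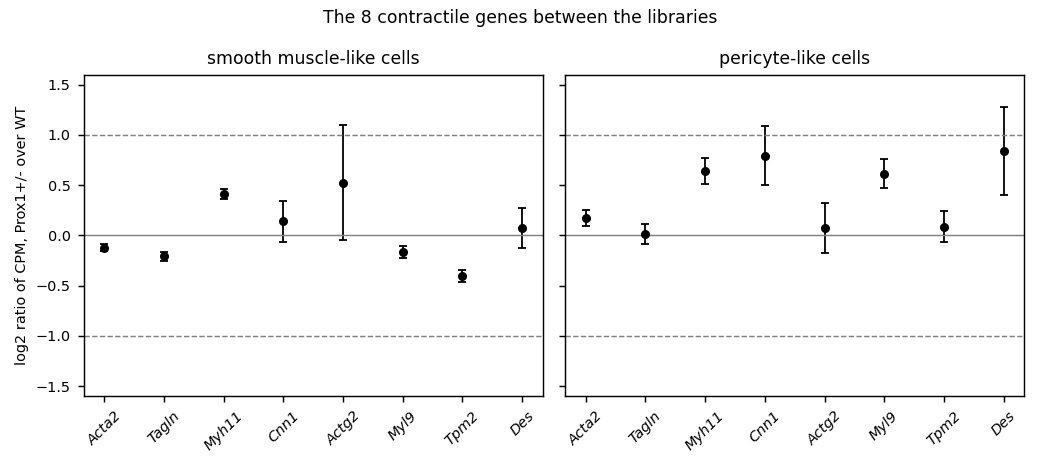
Log2 ratio of Prox1+/- over WT for each contractile gene with 95% counting intervals, in smooth muscle-like and pericyte-like cells, with dashed lines at the 2-fold limits. In smooth muscle-like cells the points lie between -0.41 (Tpm2) and 0.52 (Actg2), and in pericyte-like cells between 0.02 (Tagln) and 0.84 (Des), inside the limits.

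In pericyte-like cells 0 of 8 was called as well (5.17% of genes either way), with log2 ratios of 0.64 (0.51 to 0.77) for Myh11, 0.61 (0.47 to 0.76) for Myl9, 0.79 (0.50 to 1.08) for Cnn1 and 0.84 (0.40 to 1.27) for Des. Acta2 differed by 0.17, Tagln by 0.02, Tpm2 by 0.08 and Actg2 by 0.07. Doublet calls were 7.46% of WT and 28.2% of Prox1+/- pericyte-like cells. With doublet calls removed before clustering the levels lay closer for Myh11 (1757 CPM in WT and 1851 CPM in Prox1+/-) and Myl9 (1453 and 1488 CPM). They lay further apart for Cnn1 (336 and 693 CPM), past the 2-fold limit that it stayed within above, with Des at 127 and 214 CPM. In Zmat4-led cells Acta2 was called lower in Prox1+/-, 4 against 23 UMIs, a log2 ratio of -2.33, where 5.92% of genes were called lower, though these UMIs are too few for that background.

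Fibroblasts held far less of the set. Acta2 stood at 76.7 and 109 CPM, with a UMI in 20.4% and 28.1% of cells (7.12% and 10.4% after thinning to 2000 UMIs), Tpm2 at 52.4 and 46.0 CPM, Tagln at 31.8 and 35.0, Myl9 at 17.8 and 26.5 and Myh11 at 11.4 and 9.35 CPM. In B cells the Acta2 share was 2.04% and 3.42% (1.68% and 0% thinned), below the fibroblast share. Neutrophils, which should also lack these genes, lay nearer to fibroblasts. After thinning, 89.5% and 86.9% of neutrophils had a UMI of none of the 8 genes, against 83.3% and 79.1% of fibroblasts. Cnn1 and Actg2 had only 3 or 4 UMIs each per library among all fibroblasts. Smooth muscle-like cells were called higher for all 8 genes in both libraries (7 of them with at least 100 UMIs), where 10.5% and 10.7% of genes were. For the 6 genes with over 10 fibroblast UMIs the ratio ran from 66.7 (Tpm2) to 382 (Myh11) in WT and from 37.5 (Des) to 623 (Myh11) in Prox1+/-. Myl9, Tpm2 and Des, 3 of 8, were called higher in fibroblasts than in macrophages of WT, a share near the 32.0% of all genes, and the WT macrophages include 3 droplets that held 87.7% of their contractile UMIs. In Prox1+/- 6 of 8 were, with Acta2, Tagln and Myh11 as well (24.9% of genes). Of the genes with at least 100 UMIs over both classes, as in that background, 2 of 5 were called in WT and 4 of 4 in Prox1+/-. Pericyte-like cells were also higher than fibroblasts for all 8 (8.74% and 8.61% of genes), by 26.9-fold or more.

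Within the fibroblasts the actin and tropomyosin genes were not evenly spread. A cluster led by Tnn, Pdzrn4, Fmod and Postn, the last 2 of which encode the matrix proteins fibromodulin and periostin (175 WT and 108 Prox1+/- cells), held Acta2 at 162 and 239 CPM. A cluster led by Clec3b, Prg4 and Pi16 (370 and 246 cells) held it at 40.1 and 20.2 CPM, a ratio of 4.04 (3.42 to 4.77) and 11.8 (9.37 to 15). Tpm2 stood at 109.6 and 104.9 CPM against 27.9 and 23.6 CPM, 3.92-fold and 4.45-fold higher. Myl9 was also called higher in both libraries (2.33-fold and 3.95-fold), and Tagln in Prox1+/- (9.92-fold), which made 3 and 4 genes against 5.81% and 5.64% of all genes. Of the genes with at least 100 UMIs over both clusters, 3 of 4 were called in WT and 3 of 3 in Prox1+/-. A cluster of 195 Prox1+/- and 3 WT cells, led by the immunoglobulin genes Igha and Igkc and with a median of 1942.5 UMIs, held more of the set than either. Acta2 stood there at 517 CPM (456 to 585) and the 8 genes together at 1029 CPM in Prox1+/-. It supplied 513 of the 1535 contractile UMIs of the Prox1+/- fibroblasts, so the class levels above rest in part on it. The lead of immunoglobulin genes goes against the name fibroblast for these cells. Myh11 was not called between the Tnn-led and Clec3b-led clusters, and 38 of its 41 UMIs in the Tnn-led cluster of WT came from 1 droplet, as did 8 of 9 in Prox1+/-.

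Between libraries Acta2 in fibroblasts was 1.43-fold (1.28 to 1.59) higher in Prox1+/- and Myl9 1.49-fold (1.19 to 1.87), both under the 2-fold limit. Of the Prox1+/- fibroblasts 195 lay in a cluster led by Igha and Igkc, which held 3 WT cells. In the Clec3b-led cluster Acta2 was lower in Prox1+/-, and in the Tnn-led cluster it was higher. With the libraries merged without integration its WT level was 41.6 CPM against 19.9 CPM in Prox1+/-, so the direction turned, and without clusters drawn mostly from 1 library the log2 ratio of the summed set was -0.18. Des was called higher at 3.21-fold (1.88 to 5.68), where 1.92% of genes were, from 51 against 20 UMIs, too few for that background. Of those 51 UMIs 20 lay in 1 droplet, without which Des stood at 4.79 CPM, against 2.44 CPM in WT.

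In macrophages a few droplets set the class level. Summed over the 8 genes they stood at 107 CPM in WT (1353 UMIs) and 19.2 CPM in Prox1+/- (260 UMIs), a log2 ratio of -2.47 (-2.67 to -2.28). Taken as they were, Acta2 (47.7 and 9.40 CPM), Tagln (27.7 and 2.89), Myh11 (9.70 and 2.59), Myl9 (7.96 and 1.92) and Tpm2 (11.6 and 1.70) were called lower in Prox1+/-, 5 of 8, where 1.14% of genes were. In WT, however, 3 droplets with 618, 395 and 173 contractile UMIs held 1186 of the 1353, or 87.7%. All 3 were doublet calls, with 236, 152 and 222 UMIs of smooth muscle and pericyte markers beside 104, 184 and 153 of macrophage markers, and the median of the other macrophages for mural markers was 0. The Prox1+/- macrophage droplet with the most held 20 and was no doublet call. Without droplets of at least 20 contractile UMIs the levels were 13.3 CPM in WT and 17.8 CPM in Prox1+/-, a log2 ratio of 0.42, so the difference turned its direction. The share of macrophages with any of the 8 genes, 21.7% and 20.3%, was close in the libraries and came to 3.11% and 4.75% after thinning, against 2.52% and 0% in B cells. Other classes that should lack these genes stood above macrophages once droplets of at least 20 contractile UMIs were left out. Neutrophils then held 31.2 and 50.8 CPM and T cells, which had no such droplet, 22.4 and 26.1 CPM.

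**Figure D5:**
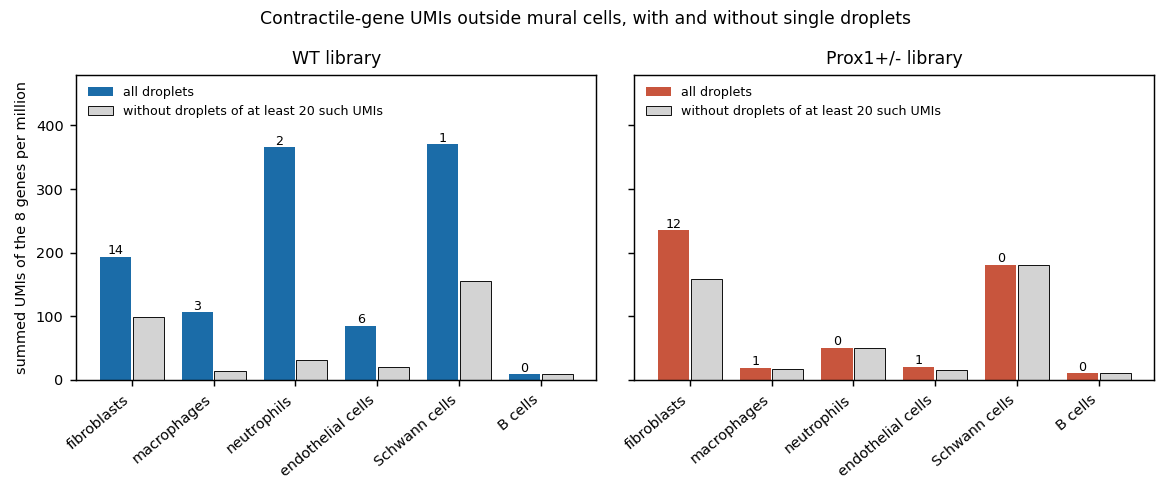
Summed CPM of the 8 contractile genes by class and library with all droplets (coloured bars) and without droplets of at least 20 such UMIs (grey bars), the number of those droplets printed above. The WT macrophage bar falls from 107 to 13.3 CPM when 3 droplets are left out and the WT neutrophil bar from 365 to 31.2 CPM when 2 are, while B cells have 0 such droplets.

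Outside macrophages single droplets also held much of the set, but most of them were no doublet calls. Among 9754 kept cells that were not mural, macrophages included, 105 droplets with at least 20 contractile UMIs held 7209 of 13855 such UMIs, 52.0%. Of these droplets 17 were doublet calls. Unnamed Prox1+/- clusters held 43 of them, with 1 doublet call. Muscle satellite cells, whose set was mostly Des, held 11 in WT and 4 in Prox1+/-, with 1 and 0 doublet calls. In fibroblasts 14 WT droplets held 51.3% and 12 Prox1+/- droplets 36%, and without them the summed level was 98.4 and 159 CPM. The fibroblast droplet with the most, in WT, held 150 contractile UMIs beside 170 of mural and 1542 of fibroblast markers. The next, also WT and a doublet call, held 132 beside 747 of mural markers, and the third, in Prox1+/- and also a doublet call, 107 beside 119. Another pair of WT droplets, with 100 and 88, had 0 Myh11 UMIs, with 51 and 58 from Tagln and 38 and 44 of mural markers. Thus the droplets rich in contractile RNA among fibroblasts differed in whether Myh11 came with it.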

How the data were processed

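The authors aligned the reads to mm10 with Cell Ranger 7.0.1 (submitters' processing notes) and deposited raw UMI counts per gene and barcode, with no normalization. Whether intronic reads were counted is not given in the sources used here, and the labels and the study's methods differ on the kit and enzymes. As in those methods, barcodes needed 500 genes or more and a mitochondrial share below 10%, and were clustered with SCTransform, anchors, 200 principal components and resolution 1.5 (Seurat 5.3.0, sctransform 0.4.2, R 4.3.3), here without 44 contractile genes and their relatives. A class was named when at least 3 markers were raised 2-fold. Mural cells were reclustered with 30 principal components at resolution 0.5.

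UMIs were summed per class and library (Python 3.11.15, numpy 2.4.6, pandas 2.3.3, scipy 1.17.1, matplotlib 3.10.9). A gene was called at a ratio of 2-fold or more with its whole 95% interval past 1, and the background counts genes with at least 100 UMIs. A class at 0 UMIs was set to 3 per class and library, giving a bound. Calls were tried on simulated counts drawn with the same counting error that the intervals assume. The simulation held no uneven spread over droplets, so it cannot show how calls fare where few droplets hold the UMIs. Scrublet (scanpy 1.11.5) called 0 doublets by its automatic threshold, so the highest scores were called at a rate of 0.008 per 1000 barcodes, 239 in WT and 462 in Prox1+/-.

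Named are the 8 genes, the 3 highest and 3 lowest of the contractile list, called genes of the other lists, Myocd, some of the 10 genes most like the mean (1 item is not reported here), and the 5 droplets with the most contractile UMIs among macrophages (of which 4 held at least 20) and fibroblasts. Members and lists were chosen with earlier results of these data known, and some naming rules and the split of Fst-led droplets after the clusters were seen. Gene positions come from GENCODE (mm10) and promoters from RefSeq (GRCm38.p6). Alternatives changed filters, doublets, clustering, denominator, thinning and the droplets included.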

Additional observations from a re-analysis of the deposited data

Results flagged for a closer look

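Droplets removed for a mitochondrial share of 10 to 20% carried contractile UMIs far above the level of B cells and lay outside the comparisons made with the 10% limit, while the filter of 200 genes and 20% takes them in. Over all 287 WT and 276 Prox1+/- barcodes of that range the set stood at 11877 and 5233 CPM. In WT 47 such droplets with at least 20 contractile UMIs held 15775 of them at 36240 CPM, and in Prox1+/- 17 held 4749 at 34039 CPM. Picking droplets by that cut itself makes these last levels high.

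Some clusters had no name and entered no comparison. Among those with at least 50 cells in a library Acta2 was highest in WT in a cluster of 94 cells led by Fabp4 and Gpihbp1, at 55.1 CPM, from 10 UMIs in 4 droplets, while smaller clusters of 6 and 19 WT cells reached 647 and 107 CPM, from 4 and 17 UMIs. In Prox1+/- it was highest in a cluster of 125 cells led by Car1, Nrg4 and Prg2, at 1729.4 CPM, from 559 UMIs in 41 droplets (32.8%). Acta2 was itself among the leading genes of that cluster, which had at most 43 contractile UMIs in 1 droplet and a median depth of 2116 UMIs. Its droplets with at least 20 contractile UMIs held 43 to 99 UMIs of neutrophil markers and 1 to 10 of mural markers.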

How the results depend on the processing

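Smooth muscle-like cells were called higher than pericyte-like cells for 4 genes in WT and 1 in Prox1+/-. With a filter of 1000 genes and 5% mitochondrial UMIs the counts were 0 and 0. Against Zmat4-led cells alone they were 7 and 7, where 17.4% of all genes were called in WT and 502 of 2516 in Prox1+/-. In Prox1+/- the count was 3 without doublet calls, 3 without the top droplet of each class and 0 against Fst-led cells alone (14.0% of genes). For the filter, the doublet calls and the top droplet the share over all genes was not counted. The summed log2 ratio between libraries in smooth muscle-like cells (-0.07) was -0.16 with a filter of 200 genes and 20% and 0.10 with that of 1000 genes and 5%. In macrophages (-2.47) it turned to 1.15 without doublet calls, 0.42 without droplets of at least 20 contractile UMIs and 0.066 with 30 principal components. It moved to -1.07 with the 200-gene filter, -3.34 with the 1000-gene filter, -2.86 with the contractile genes kept in the clustering, -2.80 at resolution 0.5, -3.25 with libraries merged, -1.71 without the top droplet, -1.71 with macrophages defined by C1q genes and -3.38 without clusters drawn mostly from 1 library. Thinned to 1000 UMIs, the share of WT cells with any of the 8 genes was 10.7% in fibroblasts (16.7% at 2000) and 1.77% in macrophages (3.11%). The causes were not tested, except that leaving out droplets shows their weight directly. Of 640 levels of single genes under the alternatives, 441 moved by less than their counting interval and 199 by more. The comparisons with subclusters, without droplets of at least 20 contractile UMIs and without 1-sided clusters were added after seeing the data. No paired analysis was possible because each condition has 1 library. Depth limits Cnn1, Actg2 and Des outside mural cells, where a few UMIs set the level.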

Other observations

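The mix of the 8 genes differed among classes outside the vessel wall. Muscle satellite cells, the stem cells of skeletal muscle, held 1313 CPM of the set in WT (90 cells) and 1098 CPM in Prox1+/- (35 cells), of which Des, the muscle intermediate filament, made up 55.6% and 54.2%, and Myh11 had 0% in both. Schwann cells, the glia of peripheral nerve, held 155 CPM in WT droplets with under 20 contractile UMIs and 181 CPM in Prox1+/-. There Tagln made up 53.4% and 42.9% and Acta2 8.48% and 5%, with Myl9 at 29.3% and 40%. In neutrophils under the same limit (31.2 and 50.8 CPM) Acta2 made up 70.8% and 61.9%, and the ratio of Acta2 to Tagln UMIs was 6.07 and 7.38. Under that limit the ratio was 4.72 and 4.31 in fibroblasts and 4.56 and 3.34 in macrophages. It was 4.5 and 3 in the 5 and 7 smooth muscle-like droplets under the limit, which held only 40 and 82 contractile UMIs in all. Myh11 made up 60% and 84.1% of those UMIs. Under the limit it made up 3.23% and 5.30% in fibroblasts and 13.8% and 12.9% in macrophages. Over all smooth muscle-like droplets the ratio of Acta2 to Tagln was 1.79 and 1.90. These mixes were not tested against each other, with 1 library per condition.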
